A study of Mus musculus with 8 samples.

Results

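The 10 genes described here encode the chain of proteins that carries the insulin and insulin-like growth factor signal from the outside of the myofiber to glycogen synthase kinase: the ligand *Igf1*, the receptors *Igf1r* and *Insr*, the adaptors *Irs1* and *Irs2*, the PI3-kinase subunits *Pik3r1* and *Pik3ca*, the kinases *Akt1* and *Akt2*, and the Akt substrate *Gsk3b*. They were taken by gene symbol from a table of 27041 rows, and all 10 were found. Each had a mean count above 50, the limit that left 11364 genes to test. RNA was sequenced from skeletal muscle of 9-week-old C57BL/6J male mice, which the study names as gastrocnemius. Ctrl mice carry floxed LSD1 L2/L2 alleles without Cre, and in LSD1skm-/- mice a Cre recombinase driven by the human skeletal actin promoter (HSA-Cre) deletes exon 1 of *Kdm1a* (which encodes LSD1) in myofibers, so that the other cells of the muscle keep the gene. The 6 libraries with counts are Ctrl replicates 1 to 4 and LSD1skm-/- replicates 1 and 2, and LSD1skm-/- replicates 3 and 4 were not analysed here.

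Insulin and IGF1 bind receptor tyrosine kinases, which phosphorylate the Irs adaptors. The adaptors recruit PI3-kinase, whose lipid product brings Akt to the membrane, where Akt is activated and in turn phosphorylates and inhibits Gsk3b, a kinase that restrains glycogen synthase. In skeletal muscle this chain is known for insulin-stimulated glucose uptake, glycogen storage, protein synthesis and the restraint of proteolysis through FoxO factors. Most of its control is by phosphorylation, which counts of RNA do not measure.

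The libraries held 30654828 to 41278769 counts. *Kdm1a* (chr4:136550540-136602723, minus strand of GRCm38) had 22.95, 21.96 and 28.06 CPM (normalized counts, scaled to a common library size by edgeR's TMM method) in Ctrl replicates 1 to 3, and 2.96 and 3.48 CPM in LSD1skm-/- replicates 1 and 2. In the library labelled Ctrl replicate 4 it had 3.66 CPM, which goes against its label, so each comparison is given with all 6 libraries and again without it. Every myofiber marker searched (*Acta1*, *Ckm*, *Des*, *Ttn* and *Mb*) had reads in every library, with a summed level of 75590 to 84950 CPM. These are bulk libraries, in which fewer cells of a type and less RNA per cell cannot be told apart.

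*Gsk3b* had the smallest p-value of the 10 genes in both comparisons, *Pik3r1* had the largest fold change in both comparisons, and *Insr* lay lower in both LSD1skm-/- libraries once the library labelled Ctrl replicate 4 was set aside. With all 6 libraries, 9 of the 10 members had a log2 fold change (LSD1skm-/- over Ctrl) below 0, with a median of -0.17, where 51.4% of all tested genes were below 0 with a median of -0.0077. Without the library labelled Ctrl replicate 4, all 10 were below 0, with a median of -0.17, against 51.0% of all tested genes and a median of -0.0058. The mean log2 CPM of the 10 members had a pooled SD of 0.16 between libraries of a group with all 6, close to the size of the median. The members were chosen with earlier results of these data known, so their shared direction is a description only. With other scalings, filters, tests or libraries left out, between 7 and 10 members were below 0. The median with all 6 libraries moved to -0.054 without LSD1skm-/- replicate 2, -0.088 without Ctrl replicate 2 and -0.29 without LSD1skm-/- replicate 1. The plot of log2 fold changes shows all 10 in both comparisons.

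**Figure D1:**
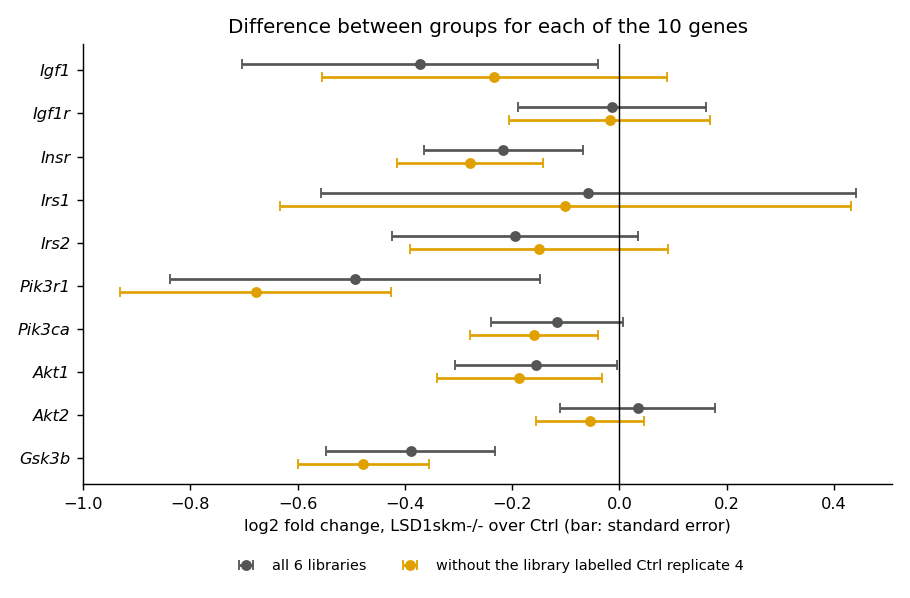
Log2 fold change of each of the 10 genes, LSD1skm-/- over Ctrl (x axis), with its standard error as a bar, from edgeR with all 6 libraries (grey) and without the library labelled Ctrl replicate 4 (yellow). *Gsk3b* (-0.39 and -0.48) and *Pik3r1* (-0.49 and -0.68) lie farthest below 0, and *Igf1r* (-0.014 and -0.018) lies closest to it.

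The thresholds of the study, an unadjusted p-value under 0.05 and a fold change above 1.3 or below 0.77, were passed by 1 member with all 6 libraries, *Gsk3b*, where 2.88% of all tested genes passed them in the lower direction and 8.9% had an unadjusted p-value under 0.05 in either direction. Without the library labelled Ctrl replicate 4, 2 members passed, *Pik3r1* and *Gsk3b*, against 5.05% of all tested genes in the lower direction and 20.2% with an unadjusted p-value under 0.05. No member had an adjusted p-value under 0.05 in edgeR's quasi-likelihood test in either comparison, where the share of all tested genes was 0.0% with all 6 libraries and 5.39% without that library. By DESeq2 none did with all 6 libraries, against 0.405% of all tested genes, and 1 did, *Gsk3b*, without that library, against 9.29%. In no member did both LSD1skm-/- libraries lie below every Ctrl library, as in 8.02% of all tested genes, whereas without that library this held for *Insr*, *Pik3r1* and *Gsk3b*, as in 17.3% of all tested genes. *Pik3r1* and *Gsk3b* are also among the genes that the study displayed from these libraries, so their direction here is not independent evidence.

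**Figure D2:**
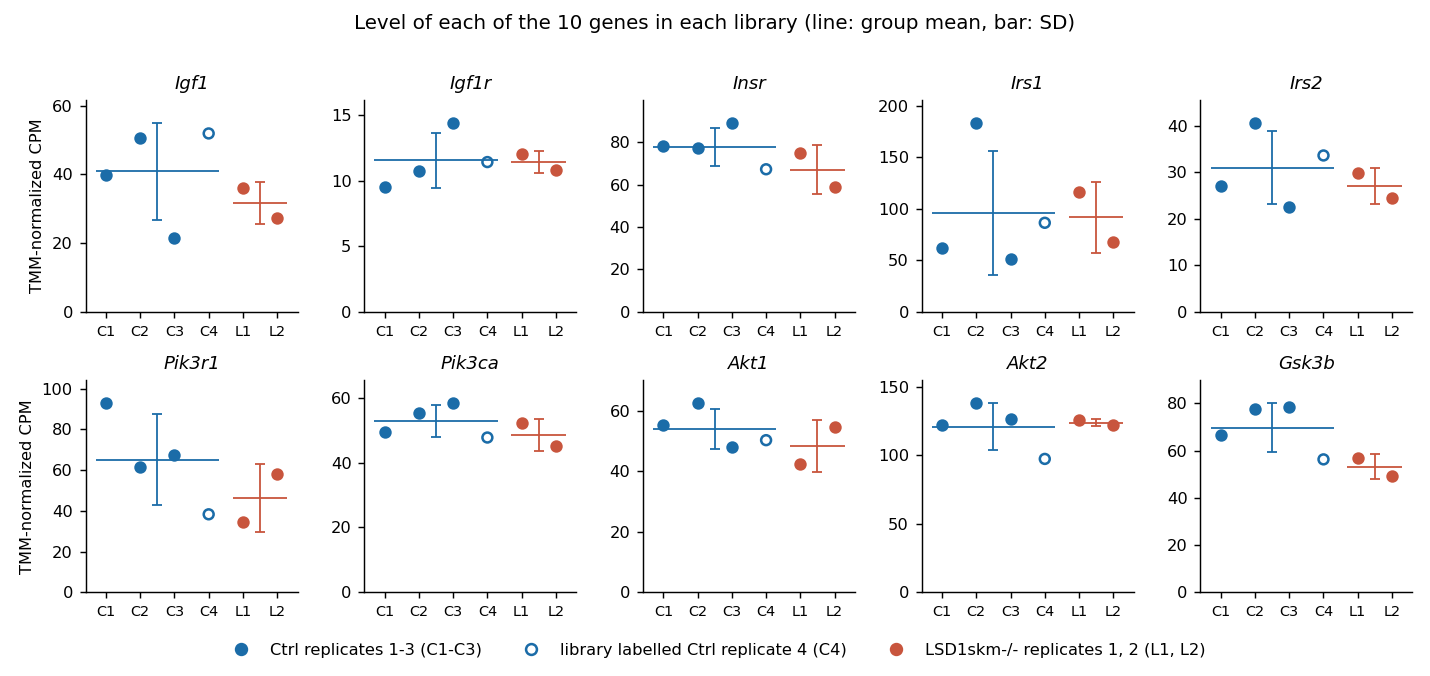
TMM-normalized CPM of each of the 10 genes (y axes, each from 0) in each library (x axes), with the group mean as a line and the SD as a bar. For *Pik3r1*, *Gsk3b* and *Insr* the open circle, the library labelled Ctrl replicate 4, lies at or among the LSD1skm-/- values, and for *Irs1* the level of Ctrl replicate 2 (184 CPM) lies far above the rest.

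*Gsk3b* (chr16:38089001-38246084, plus strand, 13 merged exons) encodes glycogen synthase kinase 3 beta, which phosphorylates glycogen synthase and many other proteins until Akt inhibits it. Its levels were 66.6, 77.6, 78.5 and 56.3 CPM in the 4 Ctrl libraries (replicates 1 to 4) and 57.0 and 49.4 CPM in LSD1skm-/- replicates 1 and 2. The library labelled Ctrl replicate 4 lay between the LSD1skm-/- libraries, and the other 3 Ctrl libraries lay above both. The means were 69.7 ± 10.5 CPM (SD, n = 4) in Ctrl and 53.2 ± 5.36 CPM in LSD1skm-/- (SD, n = 2). With all 6 libraries its log2 fold change was -0.39 (SE 0.16, unadjusted p = 0.0403, adjusted p = 0.557 by edgeR's quasi-likelihood test). It was -0.48 without the library labelled Ctrl replicate 4 (SE 0.12, unadjusted p = 0.00530, adjusted p = 0.0743 by the same test), where the Ctrl mean was 74.2 ± 6.61 CPM (SD, n = 3). The pass with all 6 libraries was lost with library size scaling (-0.34, unadjusted p = 0.0452 by edgeR), and also when any of Ctrl replicates 1, 2 and 3 or either LSD1skm-/- library was left out (edgeR's unadjusted p-values from 0.0542 to 0.217), and its log2 fold change then lay between -0.50 and -0.29. When a further library was left out of the remaining 5, *Gsk3b* passed the thresholds every time (edgeR's unadjusted p-values from 0.00378 to 0.0380). Its paralog *Gsk3a* had a log2 fold change of -0.0060 with all 6 libraries and -0.048 without the library labelled Ctrl replicate 4.

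*Pik3r1* (chr13:101680563-101768217, minus strand, 18 merged exons) encodes p85alpha, the regulatory subunit that docks PI3-kinase on the phosphorylated Irs adaptors, and shorter forms of the same subunit. Its levels were 93.0, 61.6, 67.4 and 38.3 CPM in the 4 Ctrl libraries (replicates 1 to 4) and 34.3 and 58.0 CPM in LSD1skm-/- replicates 1 and 2. LSD1skm-/- replicate 1 and the library labelled Ctrl replicate 4 stood together below the others, and LSD1skm-/- replicate 2 came close to Ctrl replicate 2. The group means were 65.1 ± 22.5 CPM (SD, n = 4) and 46.2 ± 16.7 CPM (SD, n = 2), a difference smaller than the SD of the Ctrl libraries. Its log2 fold change was -0.49 with all 6 libraries (SE 0.34, unadjusted p = 0.192, adjusted p = 0.655 by edgeR's quasi-likelihood test). Without the library labelled Ctrl replicate 4 it was -0.68 (SE 0.25, unadjusted p = 0.0302, adjusted p = 0.193 by the same test). That pass of the thresholds was lost when Ctrl replicate 1 was also left out (-0.48, unadjusted p = 0.0873 by edgeR) or LSD1skm-/- replicate 1 (-0.36, unadjusted p = 0.193 by edgeR), and without LSD1skm-/- replicate 2 the log2 fold change was -1.11.

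*Pik3ca* (chr3:32397671-32468486, plus strand, 21 merged exons) encodes p110alpha, the catalytic subunit that p85alpha holds and stabilizes. It had the narrowest range of the 10 genes, with 49.5, 55.4, 58.4 and 47.8 CPM in Ctrl replicates 1 to 4 and 52.2 and 45.2 CPM in LSD1skm-/- replicates 1 and 2, so that the highest library was 1.29 times the lowest. The groups overlapped, and the log2 fold change was -0.12 (SE 0.12) with all 6 libraries and -0.16 (SE 0.12) without the library labelled Ctrl replicate 4.

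*Insr* (chr8:3122061-3279617, minus strand, 23 merged exons) encodes the insulin receptor. Its levels were 78.0, 77.3, 89.1 and 67.2 CPM in the 4 Ctrl libraries (replicates 1 to 4) and 75.1 and 59.0 CPM in LSD1skm-/- replicates 1 and 2. LSD1skm-/- replicate 2 was the lowest library, and LSD1skm-/- replicate 1 lay above the library labelled Ctrl replicate 4 and just below Ctrl replicates 1 and 2. Its log2 fold change was -0.22 with all 6 libraries (SE 0.15, adjusted p = 0.651 by edgeR's quasi-likelihood test) and -0.28 without the library labelled Ctrl replicate 4 (SE 0.14, adjusted p = 0.310 by the same test). It passed the thresholds of the study in 1 of the other fits, that without the library labelled Ctrl replicate 4 and LSD1skm-/- replicate 1 (-0.47, unadjusted p = 0.0140 by edgeR).

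*Igf1r* (chr7:67952827-68233668, plus strand, 21 merged exons) encodes the IGF1 receptor, a close relative of the insulin receptor with which it can form hybrids. It had the fewest reads of the 10 genes, 330 to 500 per library. Its levels were 9.55, 10.8, 14.4 and 11.4 CPM in the 4 Ctrl libraries (replicates 1 to 4) and 12.0 and 10.8 CPM in LSD1skm-/- replicates 1 and 2. Both LSD1skm-/- libraries lay inside the Ctrl range, whose ends were Ctrl replicates 1 and 3. The log2 fold change was -0.014 (SE 0.17) with all 6 libraries and -0.018 (SE 0.19) without the library labelled Ctrl replicate 4, and its sign changed with library size scaling and with some libraries left out.

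*Igf1* (chr10:87858265-87937042, plus strand, 8 merged exons) encodes the growth factor that muscle both makes and receives from the blood. Its levels were 39.8, 50.7, 21.5 and 51.9 CPM in the 4 Ctrl libraries (replicates 1 to 4) and 36.0 and 27.4 CPM in LSD1skm-/- replicates 1 and 2. Ctrl replicate 3 was the lowest of all 6 libraries and the other 3 Ctrl libraries were the highest 3. With all 6 libraries, the log2 fold change was -0.37 (SE 0.33, adjusted p = 0.718 by edgeR's quasi-likelihood test) and -0.23 without the library labelled Ctrl replicate 4 (SE 0.32, adjusted p = 0.737 by the same test). *Igf1* passed the thresholds of the study when Ctrl replicate 3 was left out (-0.58, unadjusted p = 0.0137 by edgeR), also in addition to the library labelled Ctrl replicate 4 (-0.51, unadjusted p = 0.0258 by edgeR).

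*Irs1* had the widest range of the 10 genes within the Ctrl group, and its relative *Irs2* shared its highest and lowest libraries. *Irs1* (chr1:82233101-82291416, minus strand, 2 exons), the main docking protein of the insulin receptor in muscle, had 62.0, 184, 51.2 and 86.5 CPM in the 4 Ctrl libraries (replicates 1 to 4) and 116 and 67.7 CPM in LSD1skm-/- replicates 1 and 2. Ctrl replicate 2 was 3.59 times Ctrl replicate 3, and both LSD1skm-/- libraries lay within it. The log2 fold change of *Irs1* was -0.058 (SE 0.50) with all 6 libraries and -0.10 (SE 0.53) without the library labelled Ctrl replicate 4. It rested on Ctrl replicate 2, since without it the value was 0.46 (SE 0.29, unadjusted p = 0.155 by edgeR), and without it and the library labelled Ctrl replicate 4 it was 0.70 (SE 0.25, unadjusted p = 0.0232 by edgeR), which passed the thresholds in the higher direction. *Gm9747*, annotated on the other strand, overlaps 30.9% of the *Irs1* exon bases, but it had 0 to 2 reads per library. Whether counting used the strand is not given in the sources used here.

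*Irs2* (chr8:10984681-11008458, minus strand, 2 exons), the related adaptor whose transcription is known to be induced by FoxO factors, had 27.2, 40.7, 22.5 and 33.6 CPM in the 4 Ctrl libraries (replicates 1 to 4) and 29.8 and 24.4 CPM in LSD1skm-/- replicates 1 and 2. As with *Irs1*, Ctrl replicate 2 was the highest library and Ctrl replicate 3 the lowest, and both LSD1skm-/- libraries lay between them. The log2 fold change was -0.19 (SE 0.23) with all 6 libraries and -0.15 (SE 0.24) without the library labelled Ctrl replicate 4, and it turned to 0.13 (SE 0.16) when Ctrl replicate 2 was left out as well.

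The 2 Akt kinases showed no difference beyond the spread between libraries. *Akt1* (chr12:112653821-112674884, minus strand, 16 merged exons), best known for growth, had 55.1, 62.5, 47.8 and 50.2 CPM in the 4 Ctrl libraries (replicates 1 to 4) and 42.2 and 54.5 CPM in LSD1skm-/- replicates 1 and 2. *Akt2* (chr7:27591552-27640826, plus strand, 23 merged exons), best known for glucose uptake, had 122, 138, 126 and 97.2 CPM in the 4 Ctrl libraries (replicates 1 to 4) and 125 and 122 CPM in LSD1skm-/- replicates 1 and 2. Both were highest in Ctrl replicate 2, *Akt1* was lowest in LSD1skm-/- replicate 1, and *Akt2* was lowest in the library labelled Ctrl replicate 4. The log2 fold change of *Akt1* was -0.16 (SE 0.15) with all 6 libraries and -0.19 (SE 0.15) without that library. That of *Akt2* was 0.035 (SE 0.14) and -0.054 (SE 0.10). Of the stretches of 50 bases in *Akt2* transcripts, 9.76% also occur in transcripts of other genes, against at most 0.62% for any other member, and only uniquely aligned reads were counted.

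Promoter windows are printed for the 2 genes that passed the thresholds and for the 2 adaptors, both highest in Ctrl replicate 2, to show the sequence around an annotated start of each gene. Each runs from 250 bases before the start site to 50 bases after it, in RefSeq's annotation of GRCm38.p6, and capitals mark the letters CCAAT, a common promoter element that reads on the other strand as ATTGG, or CACGTG, the E-box, which reads the same on both strands. *Gsk3b* is at chr16:38088751-38089050 (plus strand), *Pik3r1*, at the upstream of its 2 annotated starts, at chr13:101768168-101768467 (minus strand), *Irs1* at chr1:82291390-82291689 (minus strand) and *Irs2* at chr8:11008880-11009179 (minus strand). The *Irs2* window lies wholly upstream of the GENCODE bounds given above for this gene, so positions in it hold for the RefSeq start only.
Gsk3b: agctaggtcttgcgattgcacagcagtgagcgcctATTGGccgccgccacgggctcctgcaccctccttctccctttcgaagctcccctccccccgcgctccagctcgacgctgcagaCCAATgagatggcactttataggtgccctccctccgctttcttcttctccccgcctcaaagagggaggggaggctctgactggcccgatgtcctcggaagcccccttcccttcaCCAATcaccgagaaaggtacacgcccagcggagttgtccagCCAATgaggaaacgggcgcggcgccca
Pik3r1: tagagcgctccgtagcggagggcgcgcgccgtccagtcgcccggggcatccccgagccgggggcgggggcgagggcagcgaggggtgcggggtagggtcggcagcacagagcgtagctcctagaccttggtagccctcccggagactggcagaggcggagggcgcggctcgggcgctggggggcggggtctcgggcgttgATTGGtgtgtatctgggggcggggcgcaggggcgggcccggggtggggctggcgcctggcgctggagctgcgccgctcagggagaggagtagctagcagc
Irs1: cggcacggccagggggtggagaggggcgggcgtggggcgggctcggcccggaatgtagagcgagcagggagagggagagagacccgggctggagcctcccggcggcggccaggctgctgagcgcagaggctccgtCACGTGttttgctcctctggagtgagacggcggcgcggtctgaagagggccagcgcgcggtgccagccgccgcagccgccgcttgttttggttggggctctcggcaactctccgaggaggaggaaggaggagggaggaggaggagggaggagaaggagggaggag
Irs2: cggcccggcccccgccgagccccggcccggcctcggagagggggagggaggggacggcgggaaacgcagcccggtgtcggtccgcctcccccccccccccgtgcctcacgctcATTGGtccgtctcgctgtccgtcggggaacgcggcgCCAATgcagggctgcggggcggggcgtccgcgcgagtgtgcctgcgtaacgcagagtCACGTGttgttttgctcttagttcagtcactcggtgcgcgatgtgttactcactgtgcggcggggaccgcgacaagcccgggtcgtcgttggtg
The *Gsk3b* window holds CCAAT or ATTGG at 4 places, of which the first bases lie at -215, -132, -18 and 24 from the start site, and the *Pik3r1* window at 1 place, -50. Of all 32851 promoter windows, 37.4% hold these letters, and of the 14 windows found for 9 of the 10 members, 5 do. CACGTG stands at -115 in the *Irs1* window and at -44 in the *Irs2* window and in no other member window, and 7.15% of all windows hold it. Of the elements linked to the factors of this study and pathway, CGCATGCG, the core of the NRF1 motif, was in 0 of the 14 member windows and 1.87% of all windows. AGAACA or TGTTCT, a half-site of the glucocorticoid receptor, was in 0 of 14 and 19.0% of all windows. GTAAACA or TGTTTAC, a FoxO site, was in 1 of 14, a window of *Akt1*, and 3.65% of all windows. A match of letters does not show a bound site, and no match says only that the letters are not in these windows. No *Insr* window was in the table used.

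Levels of different genes can be compared per length of exon. On that scale of CPM per kb, *Akt2* stood highest with 17.1 ± 1.88 (SD, n = 6), followed by *Akt1* with 12.7 ± 1.70 and *Irs1* with 10.3 ± 5.39. In a middle group *Gsk3b* had 6.53 ± 1.22, *Pik3r1* 5.83 ± 2.11, *Pik3ca* 5.66 ± 0.542, *Insr* 5.40 ± 0.747 and *Irs2* 4.70 ± 1.05 CPM per kb (SD, n = 6). *Igf1* had 3.83 ± 1.23 and *Igf1r* 0.686 ± 0.0984 CPM per kb (SD, n = 6). *Akt2* lay above *Akt1* in 6 of 6 libraries although their ranges over the libraries overlapped, and every other pair of neighbours in this order overlapped too, except *Igf1* and *Igf1r*, between which the step was 5.58 times. When the length of the longest coding transcript was used in place of all exons, *Akt2*, *Akt1* and *Irs1* stayed the first 3 and *Igf1r* the last, while *Gsk3b* moved from rank 4 to rank 6.

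**Figure D3:**
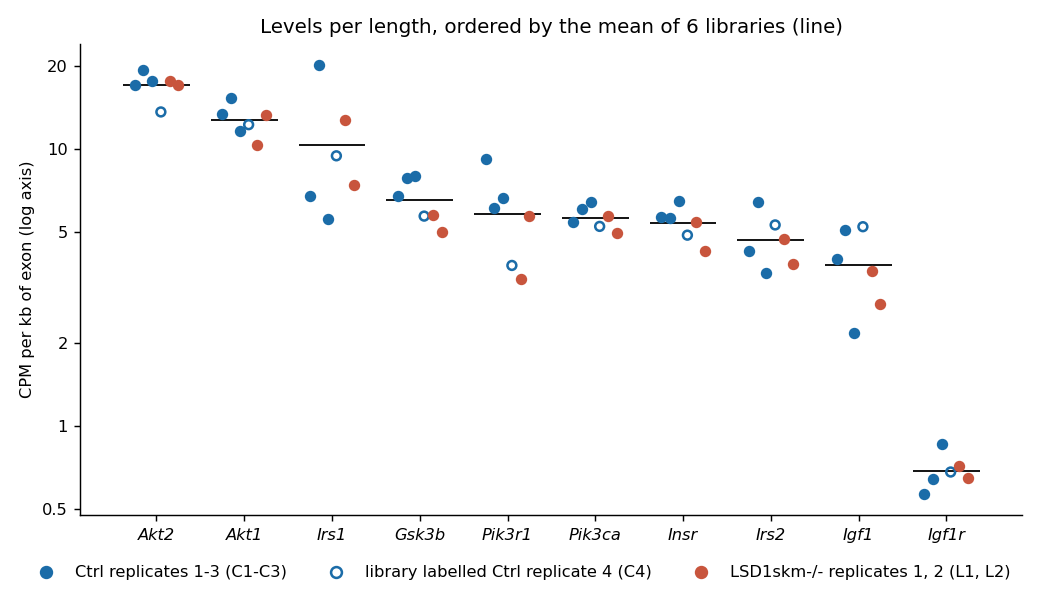
CPM per kb of exon (y axis, log scale) of the 10 genes in each of the 6 libraries, ordered from left to right by their mean (line). *Akt2* lies between 13.6 and 19.4 CPM per kb, and *Igf1r*, between 0.569 and 0.860, stands apart below all others.

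Ratios taken within a library compare partner genes without the scaling between libraries. The ratio of *Pik3r1* to *Pik3ca*, the regulatory to the catalytic subunit, was 1.69, 1.003, 1.04 and 0.723 in the 4 Ctrl libraries, and 0.594 and 1.16 in LSD1skm-/- replicates 1 and 2. The 2 LSD1skm-/- libraries thus lay on opposite sides of 1, and their range overlapped that of the Ctrl libraries. *Insr* exceeded *Igf1r* in every library, with ratios of 9.98, 8.75, 7.54 and 7.18 in Ctrl and 7.62 and 6.64 in LSD1skm-/- muscle. The ratio of *Irs1* to *Irs2* ran from 1.57 to 3.12, highest in Ctrl replicate 2 and next highest, at 2.70, in LSD1skm-/- replicate 1. *Akt1* to *Akt2* ran from 0.586 in LSD1skm-/- replicate 1 to 0.899 in the library labelled Ctrl replicate 4. In all 4 ratios the groups overlapped, with and without that library.

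**Figure D4:**
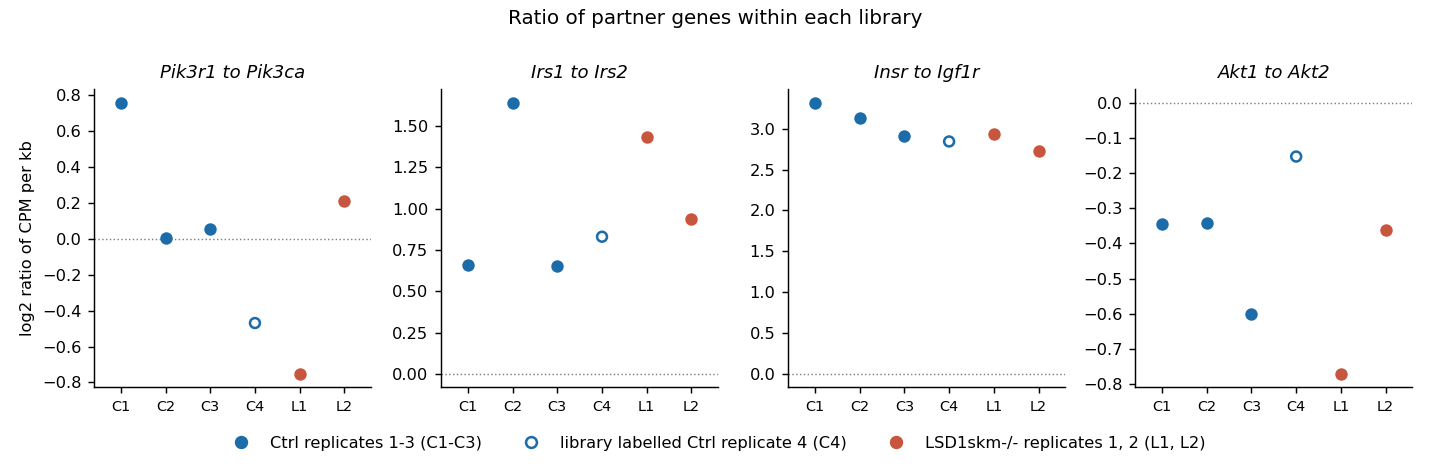
Log2 ratio of CPM per kb (y axes) of 4 pairs of partner genes within each library (x axes), where 0, dotted, marks equal levels. *Insr* lies above *Igf1r* and *Irs1* above *Irs2* in all 6 libraries, *Akt1* lies below *Akt2* in all 6, and the *Pik3r1* to *Pik3ca* ratio lies on both sides of 0 in both groups.

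The members fell into a few orders over the libraries. *Irs1*, *Irs2*, *Akt1* and *Akt2* were highest in Ctrl replicate 2. *Igf1*, *Irs1* and *Irs2* were lowest in Ctrl replicate 3, whereas *Igf1r*, *Insr*, *Pik3ca* and *Gsk3b* were highest in that same library. *Insr*, *Pik3ca* and *Gsk3b* were lowest in LSD1skm-/- replicate 2. Across the 11364 tested genes, the one most like *Gsk3b* in log2 CPM was *Pkn2*, with Pearson's r = 0.996 over the 6 libraries, and for *Insr* it was *Prdm15* (0.998), for *Pik3ca* *Akap13* (0.997) and for *Pik3r1* *Lsm4* (0.993). These 6 points share library and depth, and many genes had like patterns, with r above 0.9 for 421 genes against *Gsk3b* and 414 against *Insr*. The others were *Gimap1* for *Igf1* (0.985), *Ubqln2* for *Igf1r* (0.994), *Gne* for *Irs1* (0.978), *Arc* for *Irs2* (0.993), *Hs6st1* for *Akt1* (0.994) and *Clip4* for *Akt2* (0.992), with 36 to 110 genes above 0.9 each.

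Among the other genes of the pathway, those with the smallest p-values were ligands and binding proteins, receptor inhibitors and a regulator of glucose uptake. Of 61 further pathway genes listed by role, 52 could be tested, of which 20 had a log2 fold change above 0 and 32 below 0 with all 6 libraries (median -0.048). When the library labelled Ctrl replicate 4 was set aside these were 18 and 34 (median -0.060). With all 6 libraries none had an adjusted p-value under 0.05 by edgeR's quasi-likelihood test, and 4 (7.69%) had an unadjusted p-value under 0.05, where the share of all tested genes was 8.9%. Without that library 3 (5.77%) had an adjusted p-value under 0.05, *Igf2* and *Grb14* higher and *Tbc1d1* lower, against 5.39% of all tested genes, and 8 (15.4%) an unadjusted one, against 20.2%. As a whole the list thus held calls at about the share of all tested genes, or below it, but they were not spread evenly over the roles. With all 6 libraries, 57.1% of the 7 tested ligands and binding proteins had an unadjusted p-value under 0.05 by edgeR, and 0.0% of every other role. Without the library labelled Ctrl replicate 4 the shares were 42.9% of these 7 and 36.4% of the 11 adaptors and receptor inhibitors. They were 11.1% of the 9 genes of glucose uptake and glycogen, and 0.0% of the other roles. In the library labelled Ctrl replicate 4, the levels of *Igf2*, *Grb14* and *Tbc1d1* lay among or beyond those of LSD1skm-/- muscle, or nearer to them than to the other Ctrl libraries. They were called only with that library set aside, which favours genes with such a level, so this is not a separate result.

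*Igf2*, the fetal growth factor, had 0.608, 0.678, 0.725 and 2.86 CPM in the 4 Ctrl libraries (replicates 1 to 4) and 5.51 and 4.20 CPM in LSD1skm-/- replicates 1 and 2. Both LSD1skm-/- libraries lay above every Ctrl library, on counts of 21 to 175 reads per library. Its log2 fold change was 1.97 with all 6 libraries (SE 0.60, adjusted p = 0.557 by edgeR's quasi-likelihood test) and 2.85 without the library labelled Ctrl replicate 4 (SE 0.22, adjusted p = 0.00133 by the same test). Of the other ligands and binding proteins, *Igfbp5* and *Igfbp6* lay above and *Igfals*, the acid-labile subunit that holds IGF in the blood, lay below every Ctrl library in both LSD1skm-/- libraries. Of all tested genes, 8.02% lay below every Ctrl library in this way, and the share above was not counted here. *Igfbp5*, a binding protein that muscle secretes, had 307 to 390 CPM in Ctrl and 412 and 445 CPM in LSD1skm-/- muscle. Its log2 fold change was 0.36 with all 6 libraries (SE 0.13, unadjusted p = 0.0228 by edgeR). Without the library labelled Ctrl replicate 4 it was 0.35 (SE 0.13, unadjusted p = 0.0325 by edgeR). *Igfbp6* had 13.9 to 19.0 CPM in Ctrl and 20.4 and 24.5 CPM in LSD1skm-/- muscle, and *Igfals* 3.45 to 5.85 and 2.71 and 2.95 CPM. The log2 fold change of *Igfbp6* was 0.37 with all 6 libraries (SE 0.15, unadjusted p = 0.0453 by edgeR) and 0.38 without that library (SE 0.16, unadjusted p = 0.0506 by edgeR). That of *Igfals* was -0.63 (SE 0.25, unadjusted p = 0.0351 by edgeR) and -0.73 (SE 0.22, unadjusted p = 0.0122 by edgeR). *Igfals* passed the thresholds of the study in both comparisons, *Igfbp5* and *Igfbp6* in neither. By edgeR their adjusted p-values were 0.557 with all 6 libraries, and 0.117 (*Igfals*), 0.200 (*Igfbp5*) and 0.249 (*Igfbp6*) without that library.

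*Grb14*, an inhibitor that binds the active insulin receptor, had 16.8, 18.7, 16.1 and 40.5 CPM in the 4 Ctrl libraries (replicates 1 to 4) and 36.3 and 44.9 CPM in LSD1skm-/- replicates 1 and 2. Its log2 fold change was 0.82 with all 6 libraries (SE 0.37, adjusted p = 0.557 by edgeR's quasi-likelihood test) and 1.24 without the library labelled Ctrl replicate 4 (SE 0.13, adjusted p = 0.00321 by the same test). Its relative *Grb10* had 27.6, 28.2, 39.8 and 48.8 CPM in Ctrl and 46.8 and 48.8 CPM in LSD1skm-/- muscle, with log2 fold changes of 0.40 (SE 0.23) and 0.59 (SE 0.17, adjusted p = 0.105 by edgeR's quasi-likelihood test). *Ptpn1*, the phosphatase that switches off the insulin receptor, ran the other way, with 33.7, 29.1, 29.1 and 23.4 CPM in Ctrl and 21.4 and 24.03 CPM in LSD1skm-/- muscle, and log2 fold changes of -0.34 (SE 0.15) and -0.43 (SE 0.12, adjusted p = 0.0893 by edgeR's quasi-likelihood test). Fold changes of these receptor inhibitors thus had both signs. Without the library labelled Ctrl replicate 4, *Grb10* and *Ptpn1* passed the thresholds of the study. By DESeq2 their adjusted p-values in that comparison were 0.0307 (*Grb10*) and 0.0293 (*Ptpn1*), where 9.29% of all tested genes were under 0.05.

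*Tbc1d1*, a Rab GTPase regulator through which Akt and AMPK control glucose transporter traffic, had 164, 126, 198 and 52.7 CPM in the 4 Ctrl libraries (replicates 1 to 4) and 70.3 and 74.6 CPM in LSD1skm-/- replicates 1 and 2. The library labelled Ctrl replicate 4 was the lowest of all. Its log2 fold change was -0.90 with all 6 libraries (SE 0.45, adjusted p = 0.569 by edgeR's quasi-likelihood test) and -1.17 without that library (SE 0.19, adjusted p = 0.0149 by the same test), and the adjusted p-value was above 0.05 when either LSD1skm-/- library was then left out (0.0938 and 0.113 by edgeR). None of the other 8 genes of glucose uptake and glycogen passed a threshold in either comparison, among them the glucose transporter *Slc2a4* (0.086 and 0.021 on the log2 scale), the glycogen synthase *Gys1* (-0.056 and -0.12) and the hexokinase *Hk2* (0.058 and -0.00060). None of the tested genes among further PI3-kinase subunits (4), phosphatases and *Pdpk1* (8), and mTOR complexes and Tsc (12) passed either threshold.

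**Figure D5:**
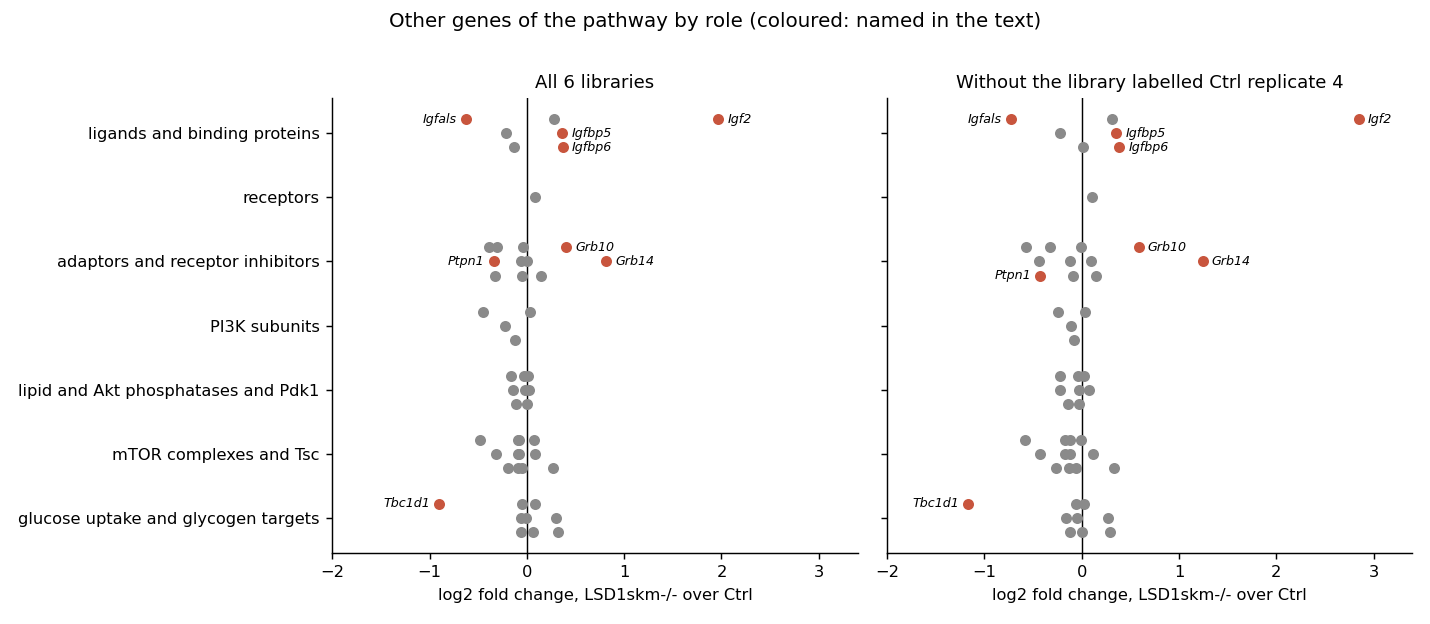
Log2 fold change, LSD1skm-/- over Ctrl (x axes), of the 52 tested genes of the wider pathway list, by role (y axis), with all 6 libraries (left) and without the library labelled Ctrl replicate 4 (right), with the genes named by rule in colour. *Igf2* (1.97 and 2.85), *Grb14* (0.82 and 1.24) and *Tbc1d1* (-0.90 and -1.17) lie farthest from 0 and move outward on the right.

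Markers of other cell types and of fiber types were summed as well. With all 6 libraries the endothelial, slow-twitch and blood sums did not overlap between the groups. The adipocyte, fibroblast, macrophage, satellite cell, Schwann cell and fast-twitch sums overlapped. Without the library labelled Ctrl replicate 4, fibroblast and satellite cell sums of LSD1skm-/- muscle lay above every Ctrl library and fast-twitch sums below. The signs counted here were the same without that library. The summed level of 6 endothelial markers was 179 to 235 CPM in Ctrl and 156 and 158 CPM in LSD1skm-/- muscle, with 6 of 6 below 0 on the log2 scale, and that of 6 slow-twitch markers was 821 to 1675 CPM and 312 and 654 CPM, also with 6 of 6 below 0. That of 8 adipocyte markers was 174 to 495 CPM and 168 and 179 CPM, with 7 of 7 tested markers below 0 (median log2 fold change -3.54, and -3.25 without the library labelled Ctrl replicate 4). That of 6 fibroblast markers was 392 to 555 CPM and 544 and 627 CPM, that of 6 macrophage markers 25.2 to 43.9 and 35.3 and 56.4 CPM, and that of 5 blood markers 28.2 to 52.2 and 64.1 and 65.8 CPM, with all of their markers above 0. The 5 satellite cell markers summed to 26.3 to 34.8 CPM in Ctrl and 33.5 and 35.1 CPM in LSD1skm-/- muscle. The 5 Schwann cell markers summed to 27.5 to 111 and 33.7 and 59.7 CPM, and the 7 fast-twitch markers to 106600 to 133900 and 103900 and 107800 CPM. Of the tested markers, 3 satellite cell markers were above 0 and 1 below. All 4 Schwann cell markers were below 0, and of the fast-twitch markers 2 were above and 5 below. No marker of these lists was at 0 in any library. These cells also express genes of the insulin and IGF pathway, and the part of these markers in the levels of *Gsk3b*, *Pik3r1*, *Insr*, *Igf1*, *Igf2* and *Grb14* was not tested.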

How the data were processed

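Poly(A) RNA of mouse skeletal muscle was prepared with a strand-specific kit and sequenced as single-end reads of 50 bases. The authors mapped the reads to mm10 (bcl2fastq 2.20.0.422 is named in the submitters' processing notes), kept uniquely aligned reads and deposited whole-number counts of reads per gene, without normalization. Their methods name htseq-count and HOMER, and the aligner and the strand used in counting are not given in the sources used here. Symbols occur more than once for 29 of the 27041 rows, and no member or named gene is among them.

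Groups came from the sample labels. The labels describe 8 libraries, of which 6 have counts. The labels number the replicates without naming their animals, so p-values measure only the spread between these libraries, which may be technical. Counts of any pair of libraries of a group differed beyond sampling noise, with a chi-square of 27.2 to 76.0 per degree of freedom. The 10 members, the gene lists, the motifs and the fit without the library labelled Ctrl replicate 4 were chosen with earlier results of these data known.

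The 11364 genes whose counts averaged more than 50 were tested with edgeR 4.0.16 in R 4.3.3 (TMM scaling, quasi-likelihood test, group as the only term, Benjamini-Hochberg adjustment over all tested genes), and the standard error was derived from the log2 fold change and the F statistic. The test was checked on simulated data in which 200 genes were changed 2-fold, at an adjusted p-value under 0.05. It recovered 123 of them with all 6 libraries, with 8 false calls. Without the library labelled Ctrl replicate 4 it recovered 162, with 15 false calls. Every simulated library followed its label, that of Ctrl replicate 4 included, and no change smaller than 2-fold was simulated. These shares thus need not hold for the real libraries, where 0 genes were called with all 6. Nor need they hold for the members, whose fold changes were smaller. A missing call does not show that a gene is unchanged. The study used DESeq2, which was an alternative here (version 1.42.0), as were limma 3.58.1, other scalings and filters, a replicate block and each library left out. Likeness was Pearson's r of log2 CPM with a prior count of 2. Named genes of the wider list are the 5 with the smallest unadjusted p-value in each of the 2 fits, to which *Gsk3a*, *Slc2a4*, *Gys1* and *Hk2* were added after their values were seen. *Igfbp1*, 1 of the 61 listed genes, was not matched to a row, and 1 further gene first placed on this list is not reported here and was left out of its counts. Coordinates and exon lengths are from the GENCODE annotation of GRCm38 (mm10). Every member had at least 330 counts in each library, and the number of LSD1skm-/- libraries limits the precision.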

Additional observations from a re-analysis of the deposited data

Results flagged for a closer look

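A library was marked for a closer look where its gap to the nearest other Ctrl library passed Dixon's 95% limit for the range of the 4 Ctrl libraries. Of 33 results examined, 4 passed. Chance marks about 1 in 20 results. This rate does not hold for *Igf2*, *Ptpn1*, *Grb14*, *Tbc1d1* and *Grb10*, which were named for their p-values in the fit without the library labelled Ctrl replicate 4. Nor does it hold for *Kdm1a*, whose level in that library was known beforehand and led to that fit. In all 4 results that passed, the library marked was the one labelled Ctrl replicate 4. Its *Kdm1a* level (3.66 CPM against 21.96 to 28.06 CPM) took 0.879 of the Ctrl range on the log2 scale. Its *Igf2* level (2.86 CPM against 0.608 to 0.725 CPM) took 0.890, and its *Grb14* level (40.5 CPM against 16.1 to 18.7 CPM) took 0.839. The summed level of fibroblast markers (555 CPM against 392 to 414 CPM) took 0.849. None of the 10 members passed this limit, and the largest gap among them was 0.698 of the range, for *Igf1* in Ctrl replicate 3.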

How the results depend on the processing

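With all 6 libraries 717 genes passed the thresholds of the study and 0 had an adjusted p-value under 0.05 by edgeR, with 1011 at an unadjusted p-value under 0.05 and 0 by limma. The first count was 1909 with no filter beyond 1 count and 1668 with the replicate block, and 340 to 1724 with a library left out. The second was 46 by DESeq2, 149 with no filter, 632 with the replicate block and 0 to 612 with a library left out. Members past the thresholds numbered 1, and 0 with library size scaling, where *Gsk3b* had a log2 fold change of -0.34 (unadjusted p = 0.0452 by edgeR), 2 with no filter, 3 with the replicate block (*Gsk3b*, *Pik3r1* and *Igf1*), and 0 to 2 with a library left out. The members' median of -0.17 was -0.28 with the replicate block and -0.29 to -0.054 with a library left out. In the fit with the replicate block, Ctrl replicates 3 and 4 have no same-numbered LSD1skm-/- library. Its group difference thus rests on replicates 1 and 2 of each group, without the library labelled Ctrl replicate 4, and is not a comparison of all 6 libraries.

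Signs changed for 4 members. *Igf1r* was at 0.025 with library size scaling, 0.17 with the replicate block and -0.096 to 0.11 with a library left out, *Irs1* at 0.077 by limma voom and -0.51 to 0.46 with a library left out, *Akt2* at -0.068 with the replicate block and -0.054 to 0.10, and *Akt1* at -0.35 to 0.011. The median of the wider list was -0.0087 with library size scaling, which moved the median of all genes to 0.029.

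Without the library labelled Ctrl replicate 4, DESeq2 called 1056 genes at an adjusted p-value under 0.05 in place of 612, with 1 member, *Gsk3b* (adjusted p = 0.00901 by DESeq2) in place of 0. Library size scaling gave 0.055 for *Igf1r*, 0.014 for *Akt2* and 0.0098 for the median of the wider list, against a median of all genes of 0.064. With a further library left out, 143 to 504 genes had an adjusted p-value under 0.05, 1 to 3 members passed the thresholds, and the members' median was -0.34 to -0.057. Log2 fold changes were then -0.51 to 0.049 for *Igf1*, -0.14 to 0.17 for *Igf1r*, -0.55 to 0.70 for *Irs1* and -0.32 to 0.13 for *Irs2*. The cause of these moves was not tested.

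The groups share replicate numbers 1 and 2 only. The deviations of same-numbered libraries had correlations of -0.23 and -0.034. With 2 LSD1skm-/- libraries, these values can neither show nor exclude pairing by number. The 2 LSD1skm-/- libraries limit every comparison.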
